A study of Homo sapiens with 36 samples.

Results

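The interferon-stimulated genes described here are 40 named genes that interferons are known to induce, found in the count tables by matching the listed symbols to Ensembl gene identifiers. All 40 were found among the 63677 genes of the tables, and 33 of them had enough reads to be among the 19180 genes tested. RNA was sequenced from A549, an established human lung adenocarcinoma cell line. The cells were grown with recombinant IL-1β at 1 ng/ml, which was renewed at each passage, and were collected on days 6, 15 and 21 of exposure, or were exposed for 21 days and then collected on days 6, 15 and 30 after IL-1β was withdrawn. At each of these 6 time points untreated A549 cells grown alongside served as the control, and each of the 12 groups held 3 replicates, which makes 36 libraries. The labels name no introduced transgene or deletion in any group, and every comparison rests on this 1 cell line. The question asked was whether these genes answered IL-1β, and whether an answer lasted after the cytokine was gone. Nothing in the labels says that replicates were separate cultures, so the p-values measure the spread between these libraries only.

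Interferons are secreted proteins that bind receptors at the cell surface and, through JAK kinases, activate transcription factors of the STAT family. With IRF9, STAT proteins form a complex that binds the interferon-stimulated response element (ISRE), a short sequence near the start of many antiviral genes. The products of those genes sense viral RNA, degrade it, block its translation, or stop particles from entering the cell. IL-1β signals through a different receptor and acts mainly through NF-κB, whose textbook targets are chemokines and cytokines.

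Library depth ran from 9116032 to 23570026 reads on genes. Mitochondrial genes made up 11.8% to 24.6% of the reads in 11 libraries and 5.61% to 7.75% in the remaining 25. These 11 comprised 6 control and 5 IL-1β libraries, 8 of them were labelled replicate 2, and 8 were collected after withdrawal. By time point they were control replicate 2 and no IL-1β library at day 6, IL-1β replicate 3 at day 15 and IL-1β replicate 2 at day 21. After withdrawal they were control replicates 1 and 2 and IL-1β replicate 2 at day 6, control replicates 2 and 3 and IL-1β replicate 2 at day 15, and replicate 2 of both conditions at day 30. Calls of members that are lost without them are given both ways, and so are some that are gained. The fit without them has only 1 control library left at days 6 and 15 after withdrawal. That library is then assumed to vary like the libraries of the other groups. The IL-1β response itself was visible in CXCL8, the neutrophil chemokine, and NFKBIA, the inhibitor of NF-κB, whose log2 fold changes at day 21 were 6.91 ± 0.45 and 1.89 ± 0.20 (SE). At day 30 after withdrawal they were -0.97 ± 0.48 and 0.82 ± 0.19. Of the epithelial markers, KRT7, KRT8, KRT18 and CDH1 were abundant, whereas EPCAM and KRT19 had control medians of only 1.03 and 0.0622 CPM (read counts scaled to a common library size, with TMM factors). Of 9 leukocyte markers 3 were tested and none passed both thresholds, their summed level spanned 9.39 to 20.3 CPM in control and 7.71 to 31.1 CPM in IL-1β libraries, and most of that sum came from CD14 (1.67 to 16.4 CPM) and ITGAM (3.44 to 14.6 CPM). The pan-leukocyte marker PTPRC and the B cell marker MS4A1 had no more than 3 counts in any library, and the T cell marker CD3E was at 0 in all 36. In bulk RNA, fewer cells with a transcript and less of it per cell cannot be told apart.

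The start regions of the members are shown first because the ISRE is the element this family is known for. Promoter windows of 250 bases before to 50 bases after the start were taken from RefSeq on GRCh38.p14, a later build than the GRCh37 of the counts, for 31 of the 40 members. The core GAAANNGAA was searched on both strands and stood in the window of 21 of the 31 member genes (67.7%), against 9.86% of all 27305 genes with a window. The GAS core TTCNNNGAA, the element bound by STAT dimers, stood in 9 of the 31 (29%) against 9.38% of all genes, and the κB motif in 6 (19.4%) against 13.3%. A match of letters is not a binding site. Pieces upstream of the start are printed 5′ to 3′ on the strand of the gene, with ISRE matches in capitals, for 4 members that hold a match and for 2 whose windows hold none and that are central to the results. These are IFIT3 (chr10:89332405-89332512, plus strand), IFI44 (chr1:78649747-78649805, plus strand), SAMD9 (chr7:93118082-93118140, minus strand), IFITM3 (chr11:320862-320937, minus strand), OAS1 (chr12:112906862-112906961, plus strand) and SAMD9L (chr7:93148386-93148485, minus strand).
IFIT3: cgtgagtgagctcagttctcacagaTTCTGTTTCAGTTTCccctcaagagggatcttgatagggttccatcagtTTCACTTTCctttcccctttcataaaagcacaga
IFI44: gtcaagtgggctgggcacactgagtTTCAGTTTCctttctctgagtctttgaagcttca
SAMD9: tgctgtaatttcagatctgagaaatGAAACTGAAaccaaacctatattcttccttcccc
IFITM3: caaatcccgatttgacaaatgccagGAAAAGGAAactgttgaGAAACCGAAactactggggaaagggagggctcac
OAS1: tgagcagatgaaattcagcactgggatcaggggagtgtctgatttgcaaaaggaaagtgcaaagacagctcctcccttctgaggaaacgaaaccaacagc
SAMD9L: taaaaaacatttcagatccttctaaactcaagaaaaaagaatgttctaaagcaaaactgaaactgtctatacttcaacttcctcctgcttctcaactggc
The printed window of IFIT3 holds 3 matches, that of IFITM3 holds 2, and those of IFI44 and SAMD9 hold 1 each. A second IFIT3 window, not printed, holds 2 matches, and a second IFI44 window holds the same match as the first. For OAS1 and SAMD9L the absence of these letters says nothing about other forms of the element. As shown later, members with a match include genes that rose (IFIT3, IFI44, SAMD9) and one that fell (IFITM3).

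A minority of the interferon-stimulated genes passed both thresholds at any time point, in both directions during exposure and upwards only after it. A change was counted where edgeR's quasi-likelihood test gave a Benjamini-Hochberg adjusted p under 0.05 over all genes tested and the fold change was over 2. By this rule 9 of the 33 tested members changed at 1 or more time points (27.3%), against 6.32% of all genes, and 24 did not. At day 6 the count was 0 members, against 2.77% of all genes (1.52% higher and 1.25% lower). DESeq2 also called 0 there. Unadjusted p was under 0.05 for 7, 18 and 13 members at days 6, 15 and 21 and for 9, 13 and 12 at days 6, 15 and 30 after withdrawal. The fold was over 2 for 4, 9 and 6 and for 6, 11 and 6 members at these times. No share of all genes is given for counts by unadjusted p or by fold alone, here or below. Such counts therefore do not set the members apart from other genes. At day 15 the count by both thresholds was 6 members (18.2%), against 4.24% of all genes. SAMD9L, SAMD9, IFI44 and IFIT3 rose (4 members, against 1.94%) and IFITM2 and IFITM3 fell (2 members, against 2.3%). At day 21 it was 5 members (15.2%), against 4.26%. OASL, SAMD9L and CMPK2 rose (3 members, against 2.19%) and the same IFITM2 and IFITM3 fell (2 members, against 2.06%). After withdrawal none of the tested members fell (against 0.725%, 0.36% and 0.464% of all genes at days 6, 15 and 30), where 1.8%, 0.954% and 0.897% of all genes were called in either direction. OASL, SAMD9L and CMPK2 were higher at day 6 (3 members, against 1.08%), SAMD9L at day 15 (1 member, against 0.594%), and OAS1 and CMPK2 at day 30 (2 members, against 0.433%). By the adjusted p alone 1, 9 and 7 members passed at days 6, 15 and 21, against 4.27%, 6.43% and 6.4% of all genes, and 4, 3 and 3 at days 6, 15 and 30 after withdrawal, against 2.62%, 1.36% and 1.31%. The counts by both thresholds are small, and leaving out single libraries moved each of them. When a replicate number was left out of every group, each call of a member against its controls but that of OASL at day 21 lost its adjusted p in some of these fits.

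**Figure D1:**
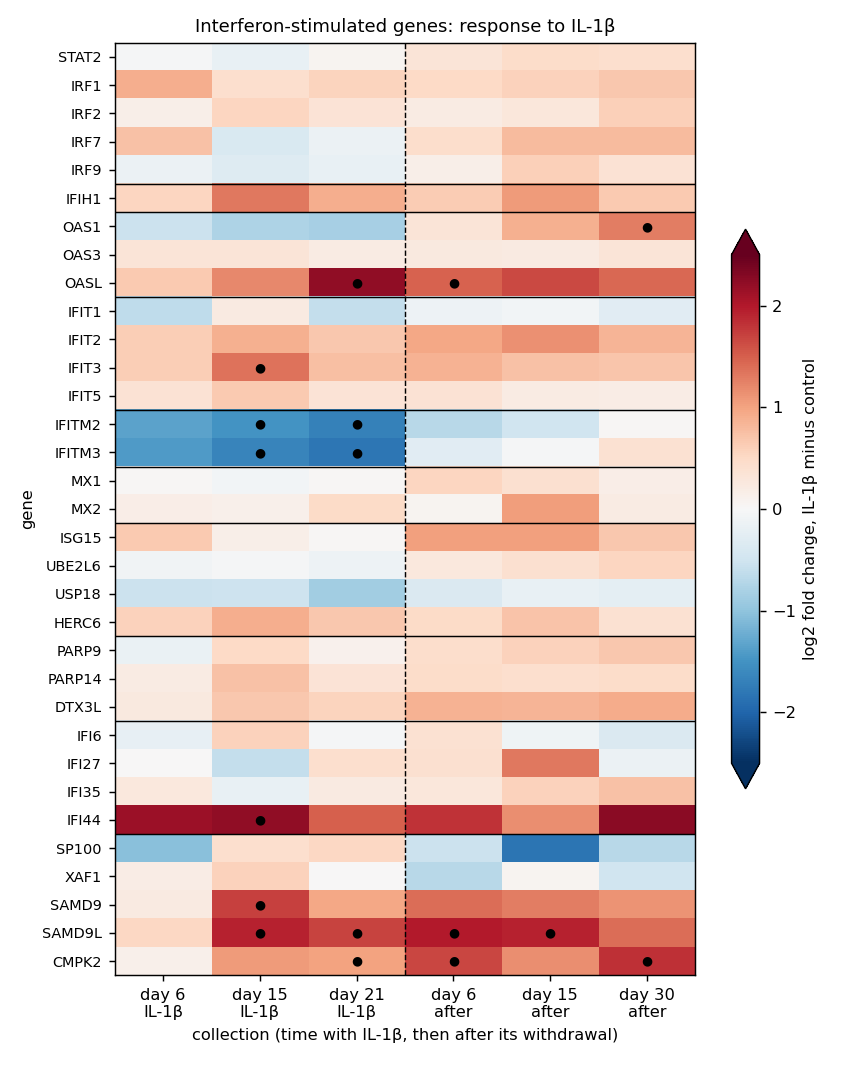
Log2 fold change, IL-1β minus control, of the 33 tested members (rows, grouped by role) at the 6 time points (columns, dashed line at withdrawal), with dots where both thresholds were passed. IFITM2 and IFITM3 are blue on the left and pale on the right, OAS1 turns from blue to red, and SAMD9L, CMPK2, OASL and IFI44 are red across most columns.

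The median log2 fold change of the members lay above that of all genes at each of the 6 time points. The lower quartile of the members was -0.14, -0.18 and -0.03 at days 6, 15 and 21 of exposure. After withdrawal it was 0.21, 0.22 and 0.19 at days 6, 15 and 30. The median log2 fold change of the 33 members was 0.19, 0.42 and 0.34 at days 6, 15 and 21 of exposure and 0.40, 0.58 and 0.54 at days 6, 15 and 30 after withdrawal, where the median of all genes lay between -0.02 and 0.02. Values above 0 were found for 22, 22 and 24 members with IL-1β and for 27 at each time point after it, that is 66.7% to 81.8%, against 47.6% to 52.8% of all genes. Over all 6 time points 17 members (51.5%) were always above 0, against 9.25% of all genes, and USP18 alone was always below. Under the other settings tried 16 to 18 members were always above 0, and with scaling by total counts USP18 was no longer below 0 at every time point. In libraries the mean log2 CPM of the 33 members, taken relative to the untreated mean, was 0.54 ± 0.09, 0.55 ± 0.16 and 0.55 ± 0.11 (SD, n = 3) at days 6, 15 and 30 after withdrawal, against 0.07 ± 0.14, 0.02 ± 0.23 and -0.03 ± 0.13 in the matched controls. During exposure the IL-1β libraries averaged 0.18 ± 0.30, 0.20 ± 0.16 and 0.21 ± 0.07 on days 6, 15 and 21, and their controls 0.06 ± 0.29, -0.10 ± 0.11 and -0.02 ± 0.10. All IL-1β libraries lay above their controls at days 15 and 21 and at the 3 time points after withdrawal, and at day 6 the groups overlapped. Libraries with a high mitochondrial share spanned -0.20 to 0.66 (median 0.25) and the others -0.24 to 0.63 (median 0.08). The highest IL-1β library was one of high share at day 15 and at each time point after withdrawal, but not at day 21. Without the former the median log2 fold change was 0.37 and 0.27 at days 6 and 21 of exposure and 0.62 at day 6 after withdrawal.

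**Figure D2:**
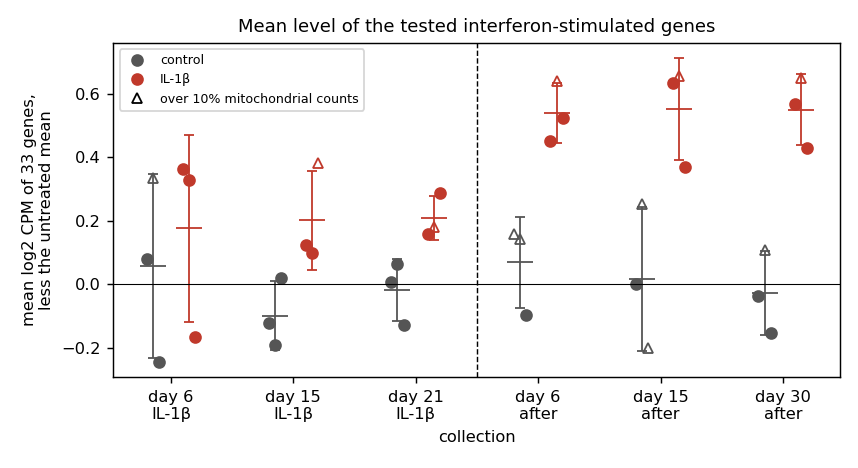
Mean log2 CPM of the 33 tested members in each library, relative to the mean of the untreated libraries, by collection (bars, mean ± SD of 3 libraries; open triangles, libraries with over 10% mitochondrial counts). IL-1β libraries after withdrawal lie between 0.37 and 0.66, above all matched controls.

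Interferon genes themselves had few or no reads. Of 21 interferon genes only IFNE, an interferon best known from epithelium of the reproductive tract, was tested. IFNE had 1.19 to 4.87 CPM in control libraries and its log2 fold change lay between -0.41 and 0.64, never past the thresholds. IFNB1 and IFNG each had 1 count in all 36 libraries together, and 19 of the 21 genes had at most 3 counts in any library. Of the 6 receptor genes, IFNGR1, a subunit of the receptor for interferon-γ, rose at day 6 from 44.6 to 113 CPM (log2 fold change 1.34 ± 0.22, adjusted p = 0.00015) and at day 15 by 1.17 ± 0.22 (adjusted p = 0.000591). At day 30 after withdrawal its change was 0.11 ± 0.22. IFNAR1 and IFNAR2, the chains of the receptor for type I interferons, did not pass both thresholds, though IFNAR2 was higher at day 6 by 0.65 ± 0.12 (adjusted p = 0.000531). None of the 11 JAK, STAT and inhibitor genes did either. Of the 10 tested genes that sense nucleic acids or activate IRF factors, IFI16, a DNA sensor, rose at day 15 (2.38 ± 0.58, adjusted p = 0.00933) and at day 21 (2.26 ± 0.58, adjusted p = 0.0135).

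**Figure D3:**
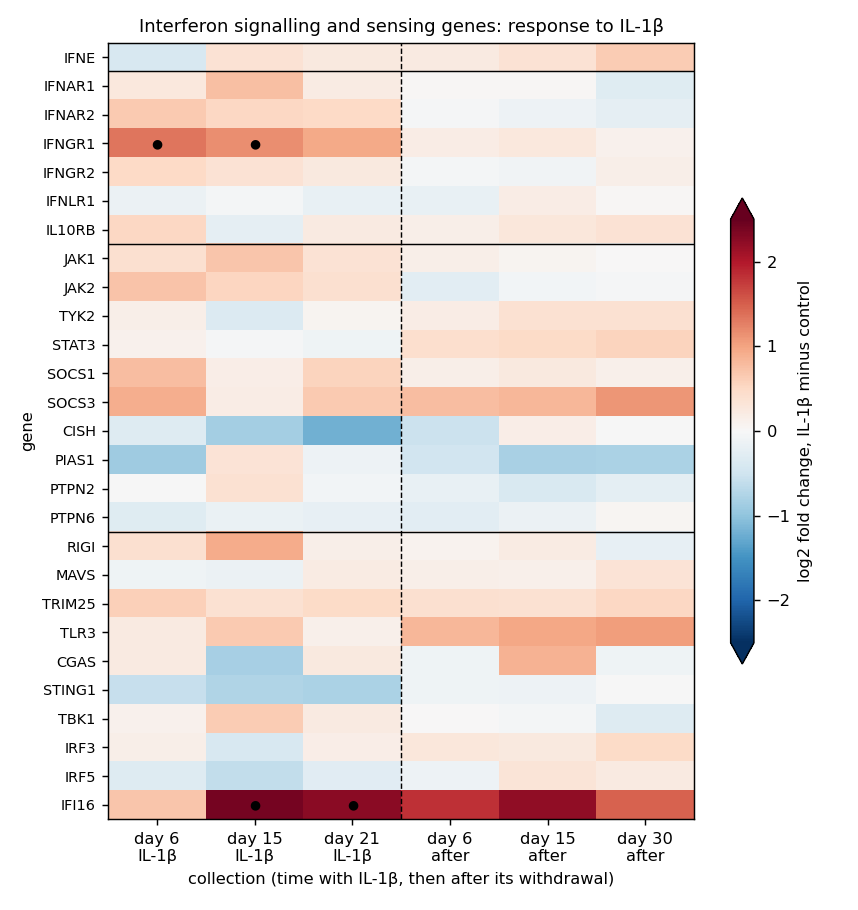
Log2 fold change, IL-1β minus control, of the tested and reported interferon ligand, receptor, JAK-STAT and nucleic acid sensing genes (rows, in that order) at the 6 time points, with dots where both thresholds were passed. IFNGR1 and IFI16 hold all the dots, at days 6 and 15 and at days 15 and 21.

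The 5 members that act as signalling and transcription factors never passed both thresholds. IRF1, an activator that is induced early by interferons and is also a textbook NF-κB target, came closest at day 6. Its controls had 25.4, 23.7 and 16.1 CPM and the IL-1β libraries 46.8, 43.6 and 32.2 CPM in replicates 1 to 3, and its log2 fold change was 0.91 ± 0.20 (adjusted p = 0.00496), short of the fold limit. The limit was passed without control replicate 1 or without IL-1β replicate 3, where the change was 1.04 and 1.06. All IL-1β libraries of IRF1 lay above all controls at 5 of the 6 time points, day 15 being the exception. An antisense gene, IRF1-AS1, overlaps 22.9% of the exonic bases of IRF1, and the strand setting of the counting is not given in the sources used here, so its reads may be included. IRF2, a relative of IRF1 that can act as a repressor, ranged from 0.14 to 0.59 in log2 fold change. STAT2 and IRF9, which bind the ISRE together, ranged from -0.18 to 0.47 and from -0.33 to 0.60, and IRF9 shares 23.9% of its exonic bases with another gene on its strand. IRF7, the master regulator of type I interferon genes, ranged from -0.37 to 0.79 and was low where the mitochondrial share was high, with 0.386 to 2.99 CPM in those 11 libraries and 1.83 to 4.49 CPM in the other 25.

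Of the RNA sensors, DHX58 was too low to test, with at most 5 counts in a library. IFIH1 encodes MDA5, a cytosolic sensor of long double-stranded RNA. At day 15 it had 3.61, 2.44 and 3.36 CPM in the controls and 5.16, 4.53 and 14.3 CPM with IL-1β, where the high replicate 3 is the library with 15.3% mitochondrial counts. Its log2 fold change of 1.32 ± 0.44 did not pass (adjusted p = 0.0737), and without IL-1β replicate 3 it was 0.63. It did pass without IL-1β replicate 2 (adjusted p = 0.0378).

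The OAS proteins make short 2′-5′ linked chains of adenylate that switch on RNase L, which degrades RNA. OAS1 (ENSG00000089127, chr12:113343661-113371024 on GRCh37) showed the clearest turn of direction among the members. At day 21 its controls had 19.9, 17.7 and 16.2 CPM and the IL-1β libraries 9.29, 8.61 and 12.1 CPM, a log2 fold change of -0.84 ± 0.19 (adjusted p = 0.00451) that missed the fold limit. At day 30 after withdrawal the controls had 20.4, 17.4 and 15.5 CPM and the IL-1β libraries 47.2, 50.3 and 31.5 CPM, a change of 1.27 ± 0.19 (adjusted p = 0.000291). The order of these groups thus reversed while the controls stayed level: over all 18 control libraries OAS1 kept between 13.8 and 20.6 CPM. In between, the log2 fold changes were 0.31 ± 0.19 at day 6 (adjusted p = 0.731) and 0.89 ± 0.19 at day 15 after withdrawal (adjusted p = 0.0105), and before that -0.54 ± 0.19 and -0.78 ± 0.19 at days 6 and 15 of exposure (adjusted p = 0.129 and 0.00963). At each of the 3 time points with IL-1β all IL-1β libraries lay below all controls, and at each of the 3 after it they lay above. The response at day 30 after withdrawal exceeded that at day 21 by 2.11 ± 0.27 (adjusted p = 3.68e-05, edgeR), and OAS1 was the only member whose response differed between these times (1 of 33, against 0.626% of all genes). The rise at day 30 held without each of its 6 libraries, with changes from 1.15 to 1.46 and adjusted p of at most 0.00757, and leaving out the libraries of high mitochondrial share gave 1.14 (adjusted p = 0.00869). It was lost, with the same sign, when that time point was fitted alone (1.26, adjusted p = 0.319, where 4 residual degrees of freedom remained) and when replicate 1 or replicate 2 was left out of every group (1.29 and 1.13, adjusted p = 0.145 and 0.136), and the difference between the responses was then 1.99 and 1.87 (adjusted p = 0.182 and 0.0611).

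OASL, a relative of OAS1 that has no such enzyme activity and enhances RNA sensing, rose with IL-1β and lay low in all controls. OASL (ENSG00000135114, chr12:121455566-121477049) had 0.684, 0.784 and 0.558 CPM in the day 21 controls and 2.99, 2.47 and 3.86 CPM with IL-1β, a log2 fold change of 2.21 ± 0.38 (adjusted p = 0.000175) from at most 94 counts in a library. This rise held without each of the 6 libraries (2.02 to 2.37). At day 6 after withdrawal the controls had 0.258, 0.605 and 0.988 CPM and the IL-1β libraries 1.91, 1.74 and 2.09 CPM, so the groups stayed apart, and the change was 1.47 ± 0.40 (adjusted p = 0.0427). This call was lost without any 1 of 5 libraries, control replicate 3 being the exception (adjusted p up to 0.203). It was lost too when libraries of high mitochondrial share were left out (1.03, adjusted p = 0.266). The values of 1.65 and 1.43 at days 15 and 30 after withdrawal had adjusted p of 0.0517 and 0.129. OAS3, the most abundant of the family at 77.1 to 139 CPM in controls, had log2 fold changes of 0.20 to 0.32, none past the adjusted threshold. At day 15 OAS3 had 124, 115 and 77.1 CPM in controls and 139, 138 and 117 CPM with IL-1β (0.31 ± 0.18, adjusted p = 0.375). OAS2 had at most 3 counts in a library.

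**Figure D4:**
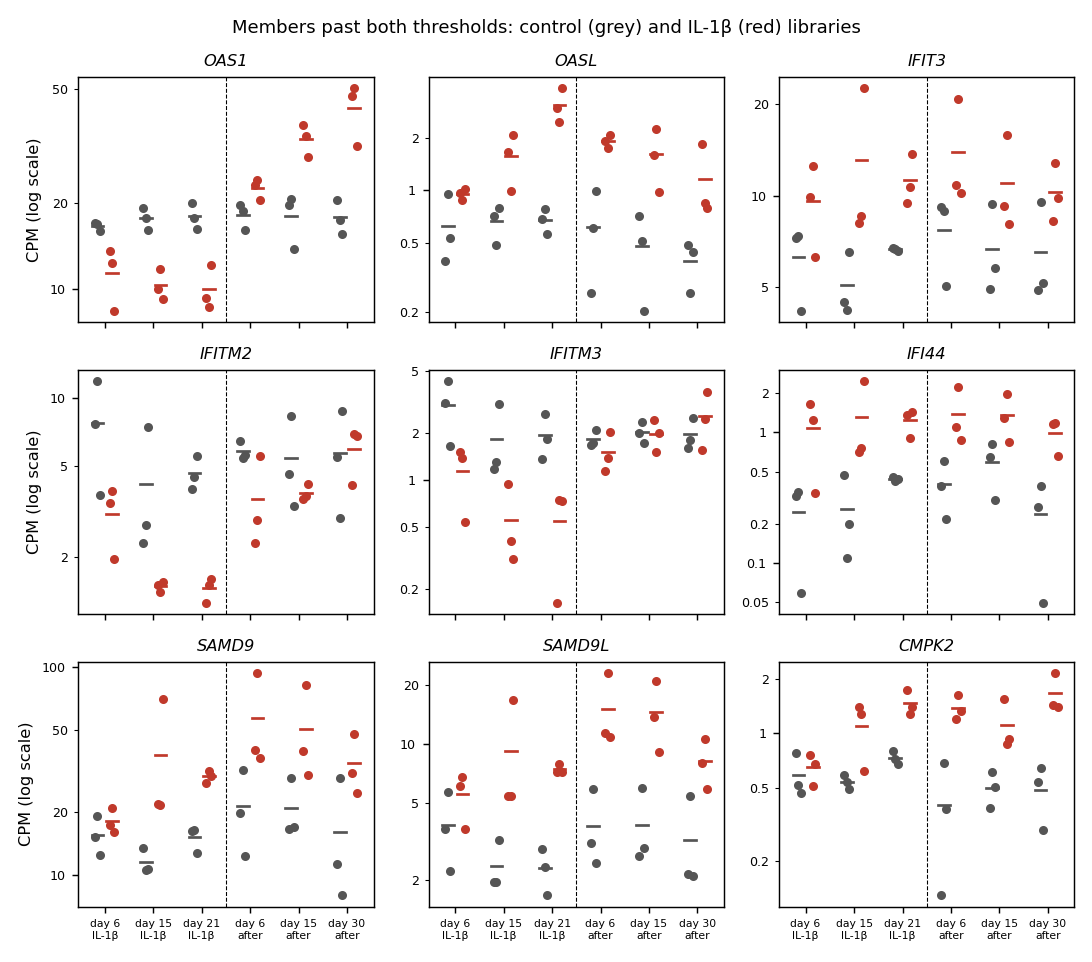
CPM on a log scale of the 9 members that passed both thresholds at 1 or more time points, in control (grey) and IL-1β (red) libraries at the 6 collections (points, libraries; short lines, means of 3). OAS1 lies below its controls during exposure and above them after withdrawal, and IFITM2 and IFITM3 lie below them at days 15 and 21.

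The IFIT proteins bind foreign RNA ends and hold back translation. IFIT3 (ENSG00000119917, chr10:91087064-91137230), whose promoter is printed above, rose at day 15. Its controls had 4.49, 4.23 and 6.53 CPM, and the IL-1β libraries 8.16, 8.60 and 22.6 CPM. The groups did not overlap, but replicate 3 with IL-1β stood far above the other two, and the log2 fold change was 1.35 ± 0.39 (adjusted p = 0.0308). The call was lost without that library (0.72, adjusted p = 0.461) and without control replicate 1 or 2. IL-1β replicate 3 is the library with 15.3% mitochondrial counts. With all libraries of high mitochondrial share left out the call was lost too (0.72, adjusted p = 0.0789). At the other time points the log2 fold change of IFIT3 was 0.61 to 0.86 with adjusted p of at least 0.388. IFIT2 was also above 0 at all 6 time points, by 0.61 to 1.14, without passing. IFIT5 came nearest to the threshold at day 15, with 23.3, 21.8 and 23.7 CPM in controls and 30.2, 30.0 and 48.3 CPM with IL-1β (0.65 ± 0.21, adjusted p = 0.0543). IFIT1 stood apart from its neighbours in the cluster, with log2 fold changes of -0.64 at day 6 and -0.59 at day 21 and all IL-1β libraries below all controls there (adjusted p = 0.586 and 0.603).

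The IFITM proteins sit in membranes and keep viruses from fusing with them. IFITM2 and IFITM3 were the only members that fell past both thresholds with IL-1β. OAS1 and USP18 also lay lower at day 21, short of the fold limit. IFITM2 (ENSG00000185201, chr11:303655-309397) had 3.99, 4.46 and 5.54 CPM in the day 21 controls and 1.25, 1.5 and 1.6 CPM with IL-1β, and fell by 1.68 ± 0.45 on the log2 scale (adjusted p = 0.0179). At day 15 the controls had 2.31, 2.76 and 7.42 CPM and the IL-1β libraries 1.5, 1.39 and 1.55 CPM, and it fell by 1.49 ± 0.46 (adjusted p = 0.0463). In both cases every IL-1β library was below every control, while the day 15 control replicate 3 was well above its group. Without that control the day 15 value was -0.78 (adjusted p = 0.535). Both IFITM2 calls were also lost without any 1 of the 3 IL-1β libraries of the time point, and the day 21 call was lost without control replicate 3 (adjusted p up to 0.0973).

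IFITM3 (ENSG00000142089, chr11:319676-329475) followed the same course at a lower level. Its day 21 controls had 1.37, 2.65 and 1.83 CPM and the IL-1β libraries 0.163, 0.749 and 0.739 CPM, so it fell by 1.81 ± 0.49 (adjusted p = 0.0202). At day 15 the controls had 1.18, 1.30 and 3.07 CPM and the IL-1β libraries 0.952, 0.407 and 0.310 CPM, and it fell by 1.64 ± 0.50 (adjusted p = 0.0446). The day 15 call was lost without control replicate 3 or IL-1β replicate 2 or 3 (adjusted p up to 0.414) and when libraries of high mitochondrial share were left out (-1.43, adjusted p = 0.152), where IFITM2 was at -1.53 (adjusted p = 0.0588). At day 21 it was lost without control replicate 2 or 3 or IL-1β replicate 1 (adjusted p up to 0.168). At day 6 of exposure the values of both genes, -1.33 and -1.42, had adjusted p of 0.0911 and 0.0902. After withdrawal IFITM2 was at -0.68, -0.50 and 0.03 and IFITM3 at -0.28, -0.02 and 0.38, with overlapping groups throughout. The difference of the IFITM responses between day 30 after withdrawal and day 21 did not pass both thresholds. IFITM2 and IFITM3 are near-identical copies between which reads can be split, and IFITM3 had at most 79 counts in a library. Their separate values are therefore uncertain. Genes on the opposite strand overlap 16.3% of the exonic bases of IFITM3, and the strand setting being unknown, their reads may be included. IFITM1, the remaining member of the family, had at most 8 counts and was not tested.

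MX1 and MX2, GTPases that trap viral particles, were low. MX1 lay between 0.232 and 1.16 CPM and its log2 fold change between -0.06 and 0.54. MX2 had its lowest adjusted p at day 15 after withdrawal, with 0.649, 0.408 and 0.203 CPM in controls and 1.54, 0.582 and 0.652 CPM with IL-1β. The groups overlapped there, and the change of 1.04 ± 0.62 did not pass (adjusted p = 0.723) and was 0.48 without IL-1β replicate 1.

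ISG15 is a ubiquitin-like tag, UBE2L6 and HERC5 attach it, and USP18 removes it and dampens interferon receptor signalling. USP18 was among the members with lower values. At day 21 it had 5.98, 6.52 and 6.29 CPM in controls and 3.20, 3.07 and 3.90 CPM with IL-1β, with no overlap and a log2 fold change of -0.88 ± 0.21 (adjusted p = 0.00594), short of the fold limit. After withdrawal its values were -0.36, -0.19 and -0.25. HERC6, a relative of HERC5, was higher at day 15 by 0.90 (adjusted p = 0.0154), also short of that limit, and above 0 at all 6 time points. ISG15 reached 1.03 and 1.02 at days 6 and 15 after withdrawal without passing (adjusted p = 0.539 and 0.611). Its libraries differed by mitochondrial share, with 0.257 to 3.29 CPM in the 11 high libraries and 2.49 to 7.59 CPM in the other 25, and without the 11 it passed both thresholds at day 6 after withdrawal, with 1 control library. UBE2L6 ranged from -0.12 to 0.54, and HERC5, with at most 10 counts, was not tested.

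PARP9, PARP14 and DTX3L form a set of ADP-ribosylating enzymes and a ubiquitin ligase that act in antiviral signalling and on chromatin. DTX3L passed the adjusted threshold at 4 of the 6 time points, each time short of the fold limit. At day 6 after withdrawal its controls had 32.1, 35.8 and 24.6 CPM and the IL-1β libraries 53.2, 66.3 and 49.4 CPM. The change of 0.87 ± 0.20 had an adjusted p of 0.00968, and at days 15 and 30 after withdrawal it was 0.85 ± 0.20 and 0.93 ± 0.20 (adjusted p = 0.0211 and 0.0112). All IL-1β libraries exceeded all controls at 5 of the 6 time points, day 6 of exposure being the exception. Without the libraries of high mitochondrial share DTX3L passed both thresholds at days 6 and 30 after withdrawal, at 1.08 and 1.07 (adjusted p = 0.0168 and 0.00674), the former with 1 control library. PARP9, which lies beside DTX3L on the opposite strand and overlaps it by 240 bases, ranged from -0.17 to 0.66, and PARP14 from 0.21 to 0.74, with no value past the adjusted threshold.

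Among the IFI genes, whose shared prefix says only that interferon induces them, IFI44 had the largest log2 fold changes from some of the lowest counts. IFI44 (ENSG00000137965, chr1:79115481-79129763) had 0.473, 0.108 and 0.198 CPM in the day 15 controls and 0.701, 0.755 and 2.48 CPM with IL-1β, that is at most 35 counts in any library. It rose by 2.22 ± 0.64 (adjusted p = 0.0319), a call lost without IL-1β replicate 3 (1.49, adjusted p = 0.304), without control replicate 2 or 3, or with the libraries of high mitochondrial share left out (1.5, adjusted p = 0.166). With those libraries left out IFI44 passed both thresholds at days 6 and 21 of exposure, at 2.43 and 1.68 (adjusted p = 0.0399 and 0.0341). All IL-1β libraries were above all controls at 5 of the 6 time points. The value of 2.25 ± 0.70 at day 30 after withdrawal had an adjusted p of 0.145. IFI35 had its lowest adjusted p at day 30 after withdrawal, with 12.4, 5.53 and 14 CPM in controls and 19.4, 15.7 and 18.9 CPM with IL-1β (0.74 ± 0.31, adjusted p = 0.449), and it too was lower where the mitochondrial share was high, at 4.66 to 15.7 CPM against 11.8 to 19.4 CPM. IFI6, a mitochondrial protein, and IFI27, known as a sensitive marker of type I interferon in blood, ranged from -0.37 to 0.58 and from -0.59 to 1.31 without passing. IFI44L, the neighbour of IFI44, had at most 4 counts.

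SAMD9L and SAMD9 are neighbouring paralogs 12032 bases apart that restrict poxviruses and slow translation. SAMD9L (ENSG00000177409, chr7:92759369-92777698) passed both thresholds at 4 of the 6 time points. At day 15 its controls had 1.95, 1.95 and 3.22 CPM and the IL-1β libraries 5.41, 5.40 and 16.8 CPM, with a log2 fold change of 1.92 ± 0.48 (adjusted p = 0.0111). At day 6 after withdrawal the controls had 3.09, 5.87 and 2.45 CPM and the IL-1β libraries 11.4, 23.1 and 10.8 CPM, and the change was 1.99 ± 0.48 (adjusted p = 0.0165). In either case the groups were far apart, and the highest IL-1β library was one of high mitochondrial share, as was the highest control after withdrawal. At day 21 SAMD9L rose by 1.69 ± 0.48 (adjusted p = 0.0278) with 7.14 to 7.93 CPM in IL-1β libraries, and at day 15 after withdrawal by 1.93 ± 0.48 (adjusted p = 0.0331). At day 30 after withdrawal 8.01, 10.5 and 5.89 CPM with IL-1β stood against 2.15, 5.40 and 2.11 CPM, again without overlap, at 1.40 ± 0.48 (adjusted p = 0.228).

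The 4 calls of SAMD9L kept their sign and a fold change over 2 in each fit without 1 library, with values from 1.18 to 2.45, but each lost its adjusted p in some of them. At day 15 this happened without control replicate 1 or 2 or IL-1β replicate 3 (adjusted p up to 0.201), and at day 21 without any 1 of the 6 libraries (adjusted p from 0.0509 to 0.180). At day 6 after withdrawal it happened without control replicate 1 or 3 or IL-1β replicate 2 (up to 0.145), and at day 15 after withdrawal without control replicate 1 or 3 or IL-1β replicate 1 or 2 (up to 0.230). Without the libraries of high mitochondrial share SAMD9L passed at all 4 of these time points, with log2 fold changes of 1.18, 1.67, 2.2 and 2.09, the last pair resting on 1 control library each, so that their spread comes from the other groups. SAMD9 (ENSG00000205413, chr7:92728826-92747336) rose at day 15 from 13.5, 10.6 and 10.6 CPM to 22.0, 21.8 and 69.9 CPM, by 1.70 ± 0.48 (adjusted p = 0.0251). Replicate 3 with IL-1β again stood far above the others, and without it the value was 0.92 (adjusted p = 0.416). The call was also lost without any 1 of the controls, and with the libraries of high mitochondrial share left out it was 0.92 (adjusted p = 0.00102), short of the fold limit. At the 3 time points after withdrawal SAMD9 was at 1.41, 1.27 and 1.12 with adjusted p of 0.138, 0.281 and 0.443.

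CMPK2, a mitochondrial nucleotide kinase that lies beside the antiviral gene RSAD2, passed at 3 time points from at most 34 counts in a library. CMPK2 (ENSG00000134326, chr2:6980701-7006766) had 0.538, 0.643 and 0.295 CPM in the controls of day 30 after withdrawal and 1.43, 2.15 and 1.40 CPM with IL-1β. The groups were clearly separate, and it rose by 1.82 ± 0.35 on the log2 scale (adjusted p = 0.00411), a call lost without control replicate 3 or IL-1β replicate 2 (adjusted p up to 0.0854). At day 6 after withdrawal it had 0.129, 0.691 and 0.387 CPM against 1.20, 1.62 and 1.33 CPM (1.68 ± 0.36, adjusted p = 0.00684), lost without control replicate 3 (adjusted p = 0.0811) and when replicate 1, 2 or 3 was left out of every group (adjusted p up to 0.287). At day 21 the change of 1.01 ± 0.31 lay at both limits (adjusted p = 0.0497) and was lost without any 1 of the 6 libraries. At all time points but day 6 of exposure every IL-1β library of CMPK2 exceeded every control. CMPK2 overlaps RSAD2 on the opposite strand by 1079 bases, and the strand setting being unknown, reads of either may be shared.

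SP100, a component of PML nuclear bodies, was by far the most abundant member per kilobase of exon, and its level differed with the mitochondrial share. It had 938 to 5749 CPM in the 11 libraries of high mitochondrial share, with a median of 2188, and 259 to 1080 CPM in the other 25, with a median of 599. At day 15 after withdrawal, where its adjusted p was lowest, SP100 had 737, 3794 and 2201 CPM in controls and 417, 1161 and 312 CPM with IL-1β, and control replicates 2 and 3 and IL-1β replicate 2 are the high libraries. The log2 fold change of -1.83 ± 0.88 did not pass (adjusted p = 0.554). Without the libraries of high mitochondrial share it was -1.01, with 1 control library. With a yes or no term for those libraries it was -1.19 (adjusted p = 0.351). XAF1, which promotes apoptosis, ranged from -0.69 to 0.58. RSAD2, which encodes the antiviral enzyme viperin, and EPSTI1 had at most 8 and 4 counts and were not tested.

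**Figure D5:**
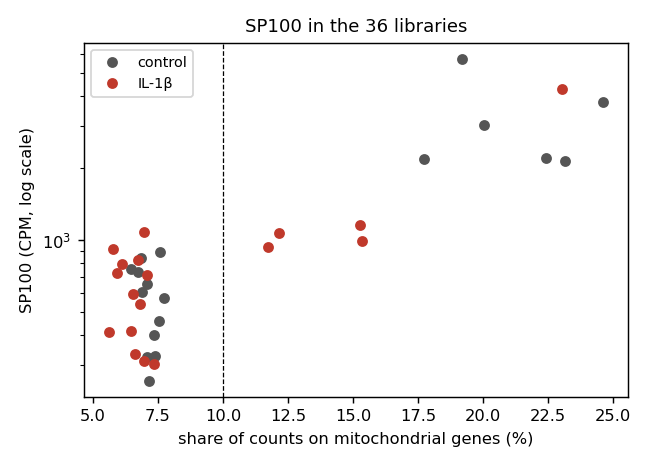
SP100 in CPM (log scale) against the share of counts on mitochondrial genes in the 36 libraries, control grey and IL-1β red, with a dashed line at 10%. The 11 libraries to the right of the line lie between 938 and 5749 CPM and the 25 to the left between 259 and 1080 CPM.

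Few members differed in response between time points. For day 21 against day 6 of exposure the count was 0 members by edgeR (against 0.0104% of all genes), with 1 at an unadjusted p under 0.05 and 0 by DESeq2. For day 6 after withdrawal against day 21 it was 0 by edgeR (against 0.136%), with 2 at an unadjusted p under 0.05, while DESeq2 called OAS1. CXCL8 by contrast fell by 5.55 on the log2 scale between those responses. For day 30 after withdrawal against day 21 it was OAS1 alone. In untreated cells, day 30 against day 6 of the collections gave 0 members by edgeR (against 0.0104%), with 0 at an unadjusted p under 0.05 and 0 by DESeq2.

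Members whose libraries did not overlap between the groups, a count that rests on no model, were counted as well. All 3 IL-1β libraries exceeded all 3 controls for 6, 12 and 16 members at days 6, 15 and 21, against 10.6%, 11.5% and 13.8% of all genes, and for 10, 13 and 12 members at days 6, 15 and 30 after withdrawal, against 5.51%, 6.02% and 6.78%. They lay below for 3, 5 and 5 members with IL-1β, against 11.2%, 13.9% and 15.2%, and for 0 members at each time point after it, against 5.24%, 4.9% and 5.11%. OAS1 and IFITM3 were among those below at all 3 time points with IL-1β.

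Among 35 other tested genes that interferons induce, taken from a list that does not include the members, a few responses were larger than those of any member. GBP1 and GBP3, guanylate-binding proteins that attack intracellular pathogens, rose at all 6 time points, with log2 fold changes of 2.52 to 3.54 and of 1.74 to 3.04. GBP2 rose at days 6, 15 and 21 (2.47, 3.24 and 2.86) and had a value of 0.01 at day 30 after withdrawal. DDX60L rose at days 15 and 21 and at day 15 after withdrawal, by 1.30, 1.21 and 1.04. APOL6 rose at the 3 time points after withdrawal, by 1.09, 1.30 and 1.44. ISG20, an RNA exonuclease, fell at days 15 and 21, by 1.74 and 1.32 on the log2 scale. In all 3, 4 and 4 of the 35 rose at days 6, 15 and 21, against 1.52%, 1.94% and 2.19% of all genes, and 0, 1 and 1 fell, against 1.25%, 2.3% and 2.06%. At days 6, 15 and 30 after withdrawal 3, 4 and 4 rose, against 1.08%, 0.594% and 0.433%, and none fell, against 0.725%, 0.36% and 0.464%. The median log2 fold changes lay between 0.35 and 0.45.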

How the data were processed

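RNA-seq count tables of 36 libraries were used, 1 per sample, holding whole-number read counts per Ensembl gene that the authors deposited without normalization. The submitters' processing notes name bcl2fastq 2.17, TopHat2 2.0.14, Bowtie2 2.2.5 and HTSeq 0.6.1, and the build is GRCh37. The strand setting and annotation release are not given in the sources used here. The 5 summary lines of each table were left out. Of reads, no feature took 8.48% to 18.6% and ambiguous ones 2.62% to 4.18%. No 2 libraries were identical. Symbols came from GENCODE v44lift37 for 55665 of 63677 genes.

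Genes were filtered with filterByExpr, scaled by TMM and fitted jointly over 12 groups in edgeR 4.0.16 (limma 3.58.1, R 4.3.3), with 24 residual degrees of freedom and without the replicate number. A gene was called at a Benjamini-Hochberg adjusted p under 0.05 and a fold over 2, over 19180 genes. Log2 CPM used a prior count of 2. On simulated counts for day 21 the fit recovered 152 of 200 genes with a log2 change of 2, with 7 false calls among 18834 genes. Those counts were drawn independently, with no likeness between libraries of the same replicate number and no shift with mitochondrial share. The figures therefore do not describe smaller changes or libraries that deviate alike. Alternatives were DESeq2 1.42.0, other scalings, no filter, separate fits, a replicate block, no fold limit and left-out replicates or libraries, and fits that account for the mitochondrial share. Tables and figures used Python 3.11.15, numpy 2.4.6, pandas 2.3.3 and matplotlib 3.10.9.

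The members and gene lists were chosen with earlier results of these data known. Values in every library are given for members that were called, and for the uncalled member of lowest adjusted p in each role group. For other genes of the pathway, only some per list are named, mainly genes past both thresholds, and not all of those. Other members are given by their ranges, and values for HERC6, IFIT1, ISG15, IRF7 and IFNAR1 and IFNAR2 were chosen after they were seen. Counting error alone limits members of few reads, since 3 counts were worth 0.127 to 0.329 CPM. Values of some listed genes are not reported here.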

Additional observations from a re-analysis of the deposited data

Results flagged for a closer look

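OAS1 differed in its response between time points. Its log2 fold change was 2.11 ± 0.27 higher at day 30 after withdrawal than at day 21 of exposure (adjusted p = 3.68e-05, edgeR). All IL-1β libraries lay below all controls at the 3 time points with IL-1β and above them at the 3 after it, a pattern that was tested only through that difference and the one between day 6 after withdrawal and day 21 (1.15, adjusted p = 0.11). CXCL8, used as a check of the IL-1β response, also differed: its log2 fold change at day 6 after withdrawal minus that at day 21 was -5.55, and at day 30 after withdrawal minus day 21 it was -7.88.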

How the results depend on the processing

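No result changed sign where it had been called. No share of all genes is given for counts of members under other settings or with libraries left out. Those counts therefore do not set the members apart from other genes. With scaling by total counts, which moved the median of all genes by 0.21 at day 15 after withdrawal, 2 members were called at day 6 (median 0.26) and 5 on day 15 after withdrawal (median 0.78). DESeq2 called 2 members at day 15 after withdrawal and 1 for day 6 after withdrawal against day 21. Separate fits of each time point called 0 members at day 15 (15 at an unadjusted p under 0.05), and 0 for days 6, 15 and 30 after withdrawal (8, 13 and 9). With no fold limit day 6 of exposure had 1 and day 15 after withdrawal had 3. Control and IL-1β libraries of the same replicate number deviated alike from their group means in most pairs. Over tested genes r was over 0.1 in 14 of 18 pairs (mean 0.28, from -0.34 to 0.72). The main fit takes no account of this. With a replicate block 2 members were called at day 15 after withdrawal and 1 for day 6 after withdrawal against day 21. The mitochondrial alternatives and single-library fits were chosen after seeing the data. One alternative used a yes or no term for libraries with over 10% mitochondrial counts. With it 2 members were called at day 6 (median 0.34) and 6, 4 and 4 at days 6, 15 and 30 after withdrawal. The median for day 21 was then 0.21. Without the libraries of high share 1 was called at day 6 (median 0.37), 2 at day 15, and 5 and 6 at days 6 and 30 after withdrawal, and the medians were 0.27 for day 21 and 0.62 for day 6 after withdrawal. The cause of these shifts was not tested.

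With 1 replicate or library left out, members called ranged from 0 to 2, 0 to 6 and 1 to 4 at days 6, 15 and 21, from 0 to 2, 0 to 2 and 0 to 3 at days 6, 15 and 30 after withdrawal, and from 0 to 1 for either time after withdrawal against day 21. Medians ranged from 0.14 to 0.35, 0.28 to 0.73 and 0.26 to 0.38 during exposure and from 0.31 to 0.48, 0.46 to 0.67 and 0.45 to 0.60 after it. For day 6 of exposure the count was 1 without control replicate 1 and 2 without control replicate 3 or IL-1β replicate 3. At day 15 it was 3 without control replicate 1, 2 without control replicate 2 or 3 and 1 without IL-1β replicate 3. For day 21 the count was 1 without control replicate 3 or IL-1β replicate 1, 2 without control replicate 2 or IL-1β replicate 2 or 3, and 3 without control replicate 1. It was 1 at day 6 after withdrawal without control replicate 1 or 3 or IL-1β replicate 2, 0 at day 15 after withdrawal without control replicate 3 or IL-1β replicate 1 or 2 and 2 without IL-1β replicate 3, and 1 at day 30 after withdrawal without control replicate 3 or IL-1β replicate 2. For named members 139 such values kept their side of the threshold, 92 lost it and 3 gained it, and under the other alternatives 176 kept it, 28 lost it and 4 gained it. With 3 libraries a group, low counts limit OASL, IFITM3, IFI44 and CMPK2 most.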
